A study of Rattus norvegicus with 16 samples.

Results

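The 9 genes described here encode the glial cell line-derived neurotrophic factor (GDNF) family and its receptors in rat: the 4 ligands Gdnf, Artn, Nrtn and Pspn, the 4 co-receptors Gfra1, Gfra2, Gfra3 and Gfra4, and the shared receptor Ret. They were chosen by gene symbol as members of the family, with earlier results of these data known. All 9 were measured, each by 1 probe set, among 18166 genes tested on microarrays of sciatic nerve. The study asked which ligand genes the distal nerve expresses after injury. All nerves came from male Sprague Dawley rats, injured at 6 weeks of age by resection of 1 sciatic nerve, with the distal end tucked away so that axons could not grow back into it. The 4 groups, each of 4 arrays from samples that the labels call biological replicates, were the distal injured nerve at 3 days post injury (DPI), the uninjured contralateral nerve at 3 DPI, the distal injured nerve at 7 DPI, and the uninjured contralateral nerve at 7 DPI. Every rat, including those that gave the contralateral nerves, had thus been operated on, and nerve from rats without surgery was not analysed here.

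GDNF family ligands are secreted dimers that support motor, sensory and autonomic neurons. Each binds a preferred co-receptor, which is held at the cell surface by a glycosyl-phosphatidylinositol anchor: GDNF binds GFRα1, neurturin GFRα2, artemin GFRα3 and persephin GFRα4. The ligand and co-receptor together bring in RET, a receptor tyrosine kinase that signals inside the cell. In peripheral nerve, Schwann cells are a known source of GDNF after axons are lost, and GFRα1 can be released from the membrane or act with the neural cell adhesion molecule NCAM in cells without RET.

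A gene was said to have risen or fallen where the limma adjusted p was under 0.05 and the change was at least 2-fold. At 3 DPI, Gdnf rose and Ret fell in injured against contralateral nerve. At 7 DPI, Gfra1 rose and Ret fell. That is 2 of 9 genes on each day, 1 in each direction. Of all genes tested, 5.81% were called at 3 DPI (3.25% rose and 2.55% fell) and 4.66% at 7 DPI (2.48% rose and 2.17% fell). The other 6 genes (Artn, Nrtn, Pspn, Gfra2, Gfra3 and Gfra4) were not called on either day. Their log2 changes lay between -0.41 and 0.15, and their 95% confidence intervals all lay within -0.65 to 0.37. Over the 9 genes the median log2 change was -0.01 at 3 DPI and -0.08 at 7 DPI, against -0.01 and -0.00 over all genes. In whole nerve, fewer cells of a type and less RNA per cell cannot be told apart.

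**Figure D1:**
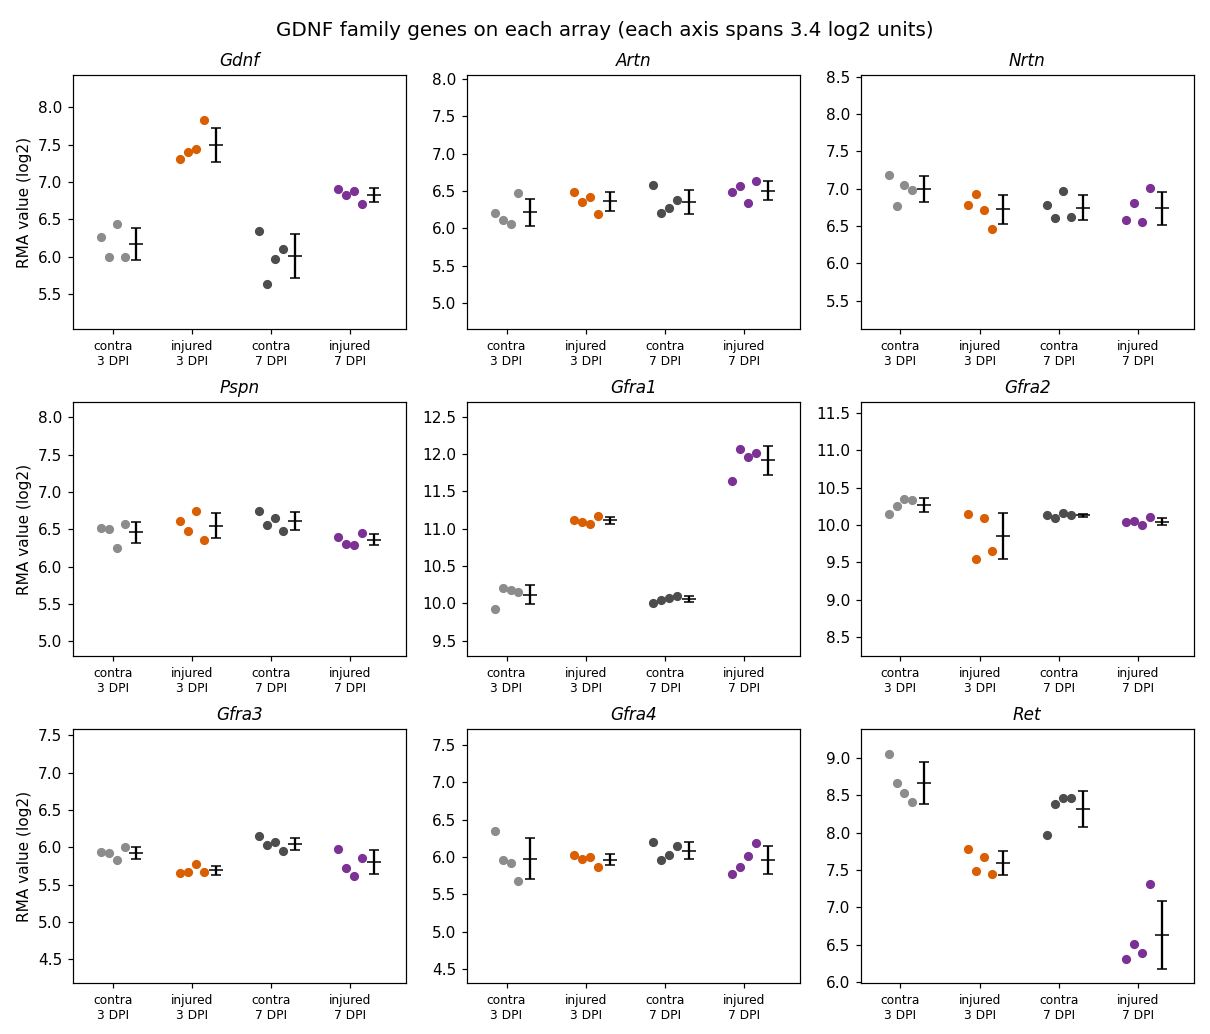
Log2 expression (vertical axis) of each of the 9 genes on each of the 16 arrays, by group (horizontal axis). Each point is 1 array and each bar a group mean with its SD, and the levels are not comparable between panels because each gene has its own probe set. Gdnf was highest at 7.50 in injured nerve at 3 DPI, Gfra1 highest at 11.92 and Ret lowest at 6.63 in injured nerve at 7 DPI.

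**Figure D2:**
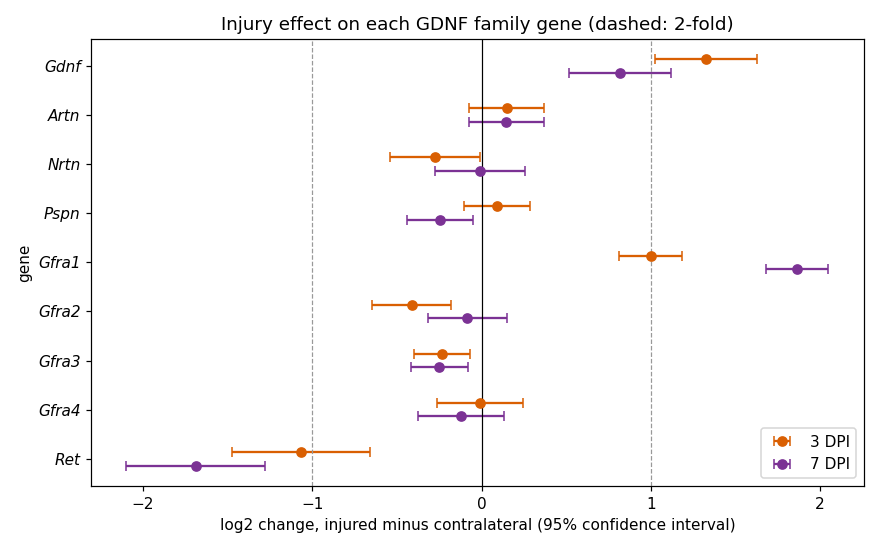
Log2 difference of injured from contralateral nerve (horizontal axis) for each of the 9 genes at 3 and 7 DPI, with 95% confidence intervals from limma. The changes of Gdnf, Gfra1 and Ret were the largest on both days, and those of the other 6 genes lay between -0.41 and 0.15. The intervals of Gdnf, Gfra1, Ret and Gfra3 excluded 0 on both days. Those of Gfra2 and Nrtn did so at 3 DPI only, and that of Pspn at 7 DPI only.

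The 250 bases before the RefSeq start of the 3 genes that were called are shown here, because these genes moved in different directions. They are from the RefSeq promoter table of the rat assembly GRCr8, which held 8 of the 9 genes and not Gfra2. Each is written 5′ to 3′ on the strand of its gene, Gdnf on the plus strand of chr2:58621077-58621326, Gfra1 on the minus strand of chr1:267555812-267556061 and Ret on the minus strand of chr4:153040557-153040806. Capitals mark TATAAA in Gdnf, and in Ret the 2 matches to the RUNX letters TGNGGT, which are read on the opposite strand.
Gdnf: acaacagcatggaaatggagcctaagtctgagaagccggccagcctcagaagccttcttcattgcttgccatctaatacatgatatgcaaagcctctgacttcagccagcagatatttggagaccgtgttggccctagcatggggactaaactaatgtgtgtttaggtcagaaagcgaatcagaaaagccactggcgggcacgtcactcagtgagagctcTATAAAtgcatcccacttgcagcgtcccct
Gfra1: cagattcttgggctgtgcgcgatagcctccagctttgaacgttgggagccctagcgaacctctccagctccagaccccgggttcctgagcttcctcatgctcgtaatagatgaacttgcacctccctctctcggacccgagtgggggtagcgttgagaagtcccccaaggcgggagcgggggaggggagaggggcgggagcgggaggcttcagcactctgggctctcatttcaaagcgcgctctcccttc
Ret: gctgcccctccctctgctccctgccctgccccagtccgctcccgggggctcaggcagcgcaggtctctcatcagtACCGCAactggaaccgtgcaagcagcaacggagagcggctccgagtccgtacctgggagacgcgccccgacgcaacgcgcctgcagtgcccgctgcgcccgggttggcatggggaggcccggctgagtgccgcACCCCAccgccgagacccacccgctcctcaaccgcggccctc

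The Gdnf sequence held 49.6% G and C, that of Gfra1 62% and that of Ret 72.8%. Over the same 250 bases before the start, the median of 33469 rat promoters was 51.2% and the upper quartile 60%. Motif letters were looked for on both strands from 250 bases before to 50 bases after the start. In that window, the AP-1 letters TGANTCA, a site for Jun, were in 7.33% of all promoters. The SOX letters AACAATG were in 4.02%, and neither was in any of the 8. The RUNX letters TGNGGT were in 47.1% of all promoters and in 5 of the 8, namely Nrtn, Pspn, Gfra3, Gfra4 and Ret, with the Ret matches starting 175 and 42 bases before the start. TATAAA, a core promoter element that was looked for only after the Gdnf sequence had been read, was in 14.2% of all promoters, and of the 8 only in Gdnf, 30 bases before the start. None of the 8 held letters of more than 1 of these motifs, and a match is a description of the letters only.

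Gdnf encodes the ligand after which the family is named. In contralateral nerve at 3 DPI its log2 values on replicates 1 to 4 were 6.26, 5.99, 6.43 and 5.99. In injured nerve at 3 DPI they were 7.31, 7.40, 7.44 and 7.83. All 4 injured arrays were above all 4 contralateral arrays, with more than 0.8 between the nearest of them. The group means were 6.17 ± 0.22 and 7.50 ± 0.23 (SD, n = 4 each), so Gdnf rose 2.50-fold, a log2 change of 1.32 ± 0.14 (SE) with a 95% confidence interval of 1.02 to 1.63 (adjusted p = 1.3e-06).

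At 7 DPI the contralateral values of Gdnf were 6.34, 5.63, 5.97 and 6.10, and the injured values 6.91, 6.83, 6.88 and 6.70. The groups again did not overlap, and the injured arrays were the closest together of the 4 groups. The means were 6.01 ± 0.29 and 6.83 ± 0.09 (SD, n = 4 each). The log2 difference was 0.82 ± 0.14 (SE), or 1.76-fold, which passed the adjusted p (0.00026) but not the fold minimum. Between the injured nerves, Gdnf was 0.67 ± 0.14 (SE) lower on the log2 scale at 7 DPI than at 3 DPI (log2 difference -0.67, adjusted p = 0.013), with no overlap of the arrays. The injury effects on the 2 days differed by -0.51 ± 0.20 (SE), with a 95% confidence interval of -0.93 to -0.08, which did not pass after adjustment (adjusted p = 0.28).

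Against the median of all probe sets on its own array, Gdnf was 0.15 lower in contralateral nerve at 3 DPI (a log2 difference of -0.15) and 1.19 higher in injured nerve. At 7 DPI these differences were -0.32 and 0.53. Against the median of the genes with 1 symbol, Gdnf was above it only in injured nerve at 3 DPI (0.52), and in injured nerve at 7 DPI the direction turned (-0.16). Its percentile among the genes on an array ran from 23.59 to 65.57. The order of its group means was injured 3 DPI, injured 7 DPI, contralateral 3 DPI and contralateral 7 DPI, and each step passed the adjusted p (0.013 and 0.0015) except the last, between the contralateral nerves (adjusted p = 0.74).

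The 3 other ligands had no called difference. Artn, which encodes artemin, a ligand for sensory and sympathetic neurons, had contralateral values of 6.21, 6.11, 6.07 and 6.47 and injured values of 6.48, 6.36, 6.43 and 6.19 at 3 DPI. At 7 DPI they were 6.58, 6.21, 6.27 and 6.38 in contralateral nerve and 6.48, 6.56, 6.34 and 6.64 in injured nerve. The injured and contralateral arrays overlapped on both days, with a log2 difference of 0.15 ± 0.10 (SE) and a 95% confidence interval of -0.07 to 0.37 on each day (adjusted p = 0.32 on both). Artn lay -0.25 to 0.32 from the array median, at percentiles of 32.13 to 43.04 among genes. Array values of dim genes understate changes, so a change of Artn larger than this interval is not excluded.

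Nrtn encodes neurturin, a ligand for parasympathetic and enteric neurons among others. Its contralateral values at 3 DPI were 7.18, 6.76, 7.05 and 6.99, and its injured values 6.78, 6.93, 6.72 and 6.46. At 7 DPI the contralateral values were 6.78, 6.61, 6.97 and 6.62 and the injured values 6.58, 6.80, 6.55 and 7.01. These groups overlapped on both days, with log2 differences of -0.27 ± 0.13 (SE, adjusted p = 0.11) and -0.01 ± 0.13 (SE, adjusted p = 0.97). Nrtn was above the array median on all 16 arrays, by 0.20 to 0.85, and its percentile among genes ran from 40.85 to 55.03.

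Pspn, which encodes persephin, had 3 DPI values of 6.51, 6.50, 6.25 and 6.57 in contralateral nerve and 6.61, 6.48, 6.75 and 6.35 in injured nerve. At 7 DPI its values were 6.74, 6.56, 6.66 and 6.47 in contralateral nerve and 6.40, 6.30, 6.29 and 6.45 in injured nerve. The arrays overlapped at 3 DPI (log2 difference 0.09 ± 0.09, SE, adjusted p = 0.52). At 7 DPI all 4 injured values were below the contralateral ones, by 0.02 at the nearest, and the log2 difference of -0.25 ± 0.09 (SE) fell short of the threshold (adjusted p = 0.054). Pspn lay -0.06 to 0.40 from the array median, at percentiles of 36.47 to 45.45, so it too was dim.

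Gfra1 encodes the co-receptor that GDNF prefers. Its contralateral values at 3 DPI were 9.92, 10.21, 10.17 and 10.15, and its injured values 11.11, 11.09, 11.07 and 11.17. The groups were far apart, and the 4 injured arrays lay within 0.2 of each other. The means were 10.11 ± 0.13 and 11.11 ± 0.05 (SD, n = 4 each), a log2 difference of 0.998 ± 0.09 (SE) with a 95% confidence interval of 0.81 to 1.18 (adjusted p = 1.1e-07). This was just under the fold minimum, so that Gfra1 was not counted at 3 DPI. It passed the minimum when any 1 of 5 of the 8 arrays was left out, the log2 difference running from 0.94 to 1.03.

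At 7 DPI the contralateral values of Gfra1 were 10.00, 10.04, 10.08 and 10.09, and the injured values 11.64, 12.07, 11.96 and 12.01. Every injured array was more than 1.5 above every contralateral array. The means were 10.05 ± 0.04 and 11.92 ± 0.19 (SD, n = 4 each), so Gfra1 rose 3.64-fold, a log2 change of 1.86 ± 0.09 (SE) with a 95% confidence interval of 1.68 to 2.05 (adjusted p = 9.5e-11).

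The injury effect on Gfra1 was larger at 7 DPI than at 3 DPI by 0.87 ± 0.12 on the log2 scale (SE, 95% confidence interval 0.60 to 1.13, adjusted p = 0.0017). Gfra1 was the 1 gene of the 9 to pass the adjusted p in this test, which 1.72% of all genes passed. With the fold minimum as well, none of the 9 and 0.385% of all genes were called. In injured nerve, Gfra1 was 0.81 ± 0.09 (SE) higher at 7 DPI than at 3 DPI (adjusted p = 3.7e-05). Its group means descended from injured 7 DPI through injured 3 DPI to contralateral 3 DPI and contralateral 7 DPI, and the contralateral nerves did not differ beyond their spread (adjusted p = 0.87). Gfra1 was above the array median on all 16 arrays, by 3.79 in contralateral nerve at 3 DPI and by 5.62 in injured nerve at 7 DPI, and its percentile among genes ran from 94.19 to 99.57.

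Gfra2 encodes the co-receptor of neurturin. At 3 DPI its contralateral values were 10.15, 10.25, 10.35 and 10.33, and its injured values 10.15, 9.54, 10.09 and 9.65. Replicates 2 and 4 of the injured nerve were below every other array of the gene, while replicate 1 reached the lowest contralateral array and replicate 3 lay just under it. The log2 difference of -0.41 ± 0.11 (SE) passed the adjusted p (0.0075) but not the fold minimum. At 7 DPI the contralateral values were 10.13, 10.10, 10.15 and 10.13, and the injured values 10.03, 10.05, 9.99 and 10.10. Those arrays lay within 0.2 of each other, and the log2 difference was -0.08 ± 0.11 (SE, adjusted p = 0.62). Its percentile among genes stayed between 90.99 and 96.23.

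Gfra3, the co-receptor of artemin, had contralateral values of 5.94, 5.92, 5.83 and 6.01 and injured values of 5.66, 5.66, 5.77 and 5.67 at 3 DPI. At 7 DPI it had contralateral values of 6.15, 6.03, 6.07 and 5.95 and injured values of 5.98, 5.73, 5.62 and 5.86. The groups did not overlap at 3 DPI and overlapped by 1 array at 7 DPI. The log2 differences of -0.23 ± 0.08 (SE, adjusted p = 0.029) and -0.25 ± 0.08 (SE, adjusted p = 0.022) passed the adjusted p alone. Gfra3 was below the array median on all 16 arrays.

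Gfra4, the co-receptor of persephin, had contralateral values of 6.35, 5.96, 5.92 and 5.68 and injured values of 6.03, 5.97, 6.00 and 5.86 at 3 DPI. Its 7 DPI values were 6.21, 5.96, 6.02 and 6.15 in contralateral nerve and 5.77, 5.87, 6.01 and 6.20 in injured nerve. The groups overlapped on both days, with log2 differences of -0.01 ± 0.12 (SE, adjusted p = 0.97) and -0.12 ± 0.12 (SE, adjusted p = 0.49). Gfra4 was above the array median on 1 of 16 arrays.

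Ret encodes the receptor tyrosine kinase through which all 4 ligands can signal. Its contralateral values at 3 DPI were 9.06, 8.66, 8.53 and 8.41, and its injured values 7.79, 7.48, 7.67 and 7.45. No injured array reached the lowest contralateral array. The means were 8.67 ± 0.28 and 7.60 ± 0.16 (SD, n = 4 each), so Ret fell 2.10-fold, a log2 change of -1.07 ± 0.19 (SE) with a 95% confidence interval of -1.48 to -0.66 (adjusted p = 3e-04). Without contralateral 3 DPI replicate 1, which had the highest value of all 16 arrays, the change was -0.94 and no longer reached 2-fold.

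At 7 DPI the contralateral values of Ret were 7.96, 8.39, 8.46 and 8.47, and the injured values 6.31, 6.52, 6.39 and 7.31. The groups were apart, although injured replicate 4 lay well above the other 3 injured arrays. The means were 8.32 ± 0.24 and 6.63 ± 0.46 (SD, n = 4 each), so Ret fell 3.22-fold, a log2 change of -1.69 ± 0.19 (SE) with a 95% confidence interval of -2.10 to -1.28 (adjusted p = 3.3e-06).

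Between the injured nerves, Ret was lower at 7 DPI than at 3 DPI by a log2 difference of -0.97 ± 0.19 (SE, adjusted p = 0.0081), with no overlap of the arrays, which is just under the fold minimum. Without injured 7 DPI replicate 4 it was -1.19 and was called, and it was also called without injured 3 DPI replicate 2 or 4. The injury effects on the 2 days differed by -0.62 ± 0.27 (SE, adjusted p = 0.32). The group means of Ret descended from contralateral 3 DPI to contralateral 7 DPI, injured 3 DPI and injured 7 DPI. The first step did not pass (log2 difference -0.35 ± 0.19, SE, adjusted p = 0.54) and both others did (adjusted p = 0.0081 for each). Ret was above the array median on all 16 arrays, by 2.34 in contralateral nerve at 3 DPI and by 0.33 in injured nerve at 7 DPI. Against the median of the genes with 1 symbol it was above on 13 of 16 arrays, by 1.74 in the first of these groups and with the direction turned in the second (-0.36). Its percentile among genes ran from 37.83 to 86.58.

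**Figure D3:**
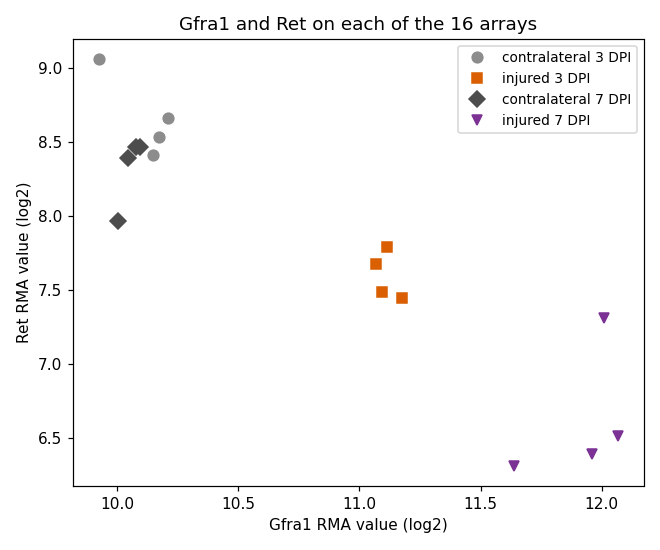
Log2 expression of Gfra1 (horizontal axis) and Ret (vertical axis) on each of the 16 arrays, with 1 point per array and the groups marked. The 8 injured arrays lay at Gfra1 values of 11.07 to 12.07 and Ret values of 6.31 to 7.79, and the 8 contralateral arrays at 9.92 to 10.21 and 7.96 to 9.06.

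Counted over the 9 genes, 5 passed the adjusted p alone at 3 DPI (33.5% of all genes did) and 4 at 7 DPI (32.1% of all genes). The injured and contralateral arrays did not overlap for 4 of the 9 on each day, where 33.9% of all genes did not overlap at 3 DPI and 31.7% at 7 DPI. Whether these shares differed from those of all genes was not tested. Between injured nerve at 7 and at 3 DPI, none of the 9 was called (0.319% of all genes), while Gdnf, Gfra1 and Ret passed the adjusted p (4.02% of all genes) and did not overlap (12% of all genes). For the 6 other genes, no neighbouring group means differed past the adjusted p.

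The contralateral nerves gave the background between the 2 days. None of the 9 genes was called between them (0.011% of all genes) and none passed the adjusted p (0.0716% of all genes), the lowest adjusted p being 0.48, nor was any at an unadjusted p under 0.05. The log2 differences, 7 DPI less 3 DPI, lay between -0.35 for Ret and 0.15. The arrays overlapped for all 9, where 5.42% of all genes did not overlap.

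Of 39 other genes of GDNF family signaling that were listed, 37 were measured. At 3 DPI 2 rose and 2 fell, and at 7 DPI 1 rose and 2 fell. Of all genes tested, 5.81% were called at 3 DPI and 4.66% at 7 DPI, the background for the lists below too. The median log2 change of the 37 was -0.05 at 3 DPI and 0.11 at 7 DPI, beside -0.01 and -0.00 over all genes. None of the 37 was called for a difference of injury effects between the days (0.385% of all genes were).

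Among 8 measured receptors and binding partners outside the family, 1 fell on both days. This was Ncam1, which encodes the adhesion molecule that can act as a receptor for GDNF together with GFRα1. Ncam1 fell from a mean log2 value of 9.54 to 7.72 at 3 DPI, by 1.82 ± 0.24 (SE), or 3.54-fold (adjusted p = 1.2e-05). At 7 DPI it fell from 9.20 to 8.19, by 1.01 ± 0.24 (SE), or 2.02-fold (adjusted p = 0.0033). Leaving out 1 array ended this call at 7 DPI for contralateral replicate 1 (-0.99), contralateral replicate 2 (-0.96), injured replicate 3 (-0.83) and injured replicate 4 (-0.84), as did leaving out both of those contralateral arrays (-0.90). Sdc3, which encodes a heparan sulfate proteoglycan that binds GDNF, had log2 differences of -0.69 ± 0.10 (SE, adjusted p = 5e-05) and -0.26 ± 0.10 (SE, adjusted p = 0.068). The sorting receptor genes Sort1 and Sorl1 were not called, with log2 differences of -0.18 and -0.10 at 3 DPI and of 0.39 and -0.27 at 7 DPI.

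Of 17 RET adaptor and effector genes, 2 rose and 1 fell at 3 DPI, and 1 rose and 1 fell at 7 DPI. The docking protein gene Dok4 fell 3.55-fold at 3 DPI (log2 change -1.83 ± 0.08, SE, adjusted p = 7e-11) and 3.19-fold at 7 DPI (-1.67 ± 0.08, SE, adjusted p = 2.2e-10). Its relative Dok5 rose on both days, by 1.14 ± 0.21 (SE, adjusted p = 0.00034) and 1.45 ± 0.21 (SE, adjusted p = 3.7e-05). The Dok5 means were low, at 5.34 and 5.47 in contralateral nerve and 6.48 and 6.92 in injured nerve. Gab2, an adaptor that couples receptor kinases to phosphoinositide 3-kinase, rose 2.30-fold at 3 DPI (1.20 ± 0.09, SE, adjusted p = 2.1e-08) and had a log2 difference of 0.49 ± 0.09 (SE) at 7 DPI. Its injury effects on the 2 days differed by -0.72 ± 0.13 (SE, adjusted p = 0.0095). None of 9 genes for brakes on RET signaling and RET-induced factors was called, and none of 3 measured genes for enzymes that cut glycosyl-phosphatidylinositol anchors.

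**Figure D4:**
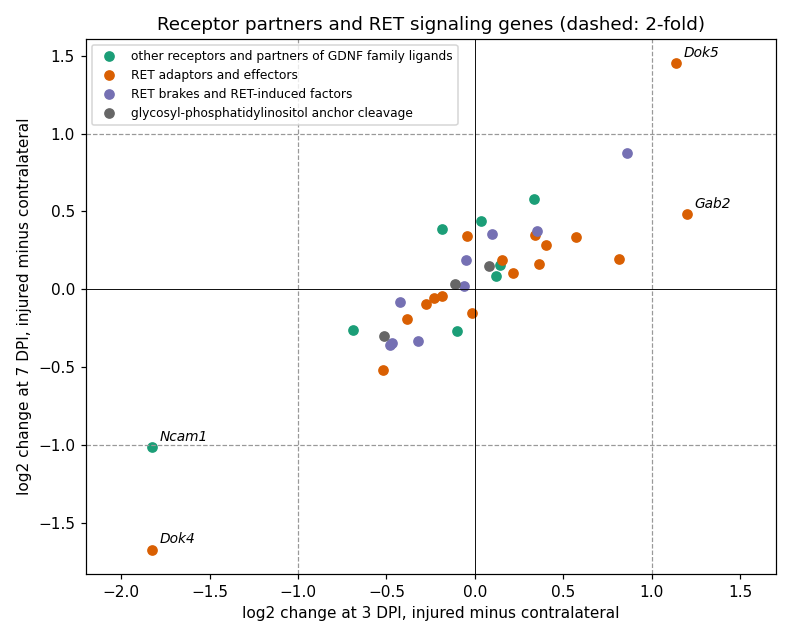
Log2 difference of injured from contralateral nerve at 3 DPI (horizontal axis) and 7 DPI (vertical axis) for 37 genes of the pathway outside the family, with 1 point per gene, colors for the lists and the called genes named. Dok4 and Ncam1 lay at the lower left, Dok5 at the upper right, and Gab2 past 2-fold at 3 DPI only.

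A further list held 10 genes tied to Jun and to repair Schwann cells, the state that Schwann cells take on when they lose contact with axons. In mouse, the transcription factor Jun is known to be needed for Gdnf and Artn expression by these cells. The list was drawn up with results of these data known and is not independent evidence. Of its genes, 8 rose at 3 DPI and 7 at 7 DPI, where 3.25% and 2.48% of all genes rose. Olig1 and Bdnf were called on neither day. The largest changes at 3 DPI were of Ucn2, a peptide ligand gene (log2 change 5.07 ± 0.18, SE), the epidermal growth factor family gene Btc (3.83 ± 0.11), the transcription factor gene Runx2 (3.60 ± 0.13) and the growth factor gene Fgf5 (3.50 ± 0.15). At 7 DPI they were 3.27 for Ucn2, 3.75 for Btc, 3.33 for Runx2 and 3.81 for Fgf5. Jun rose 3.32-fold at 3 DPI (log2 change 1.73 ± 0.11, SE, adjusted p = 2.1e-09) and 2.75-fold at 7 DPI (1.46 ± 0.11, SE, adjusted p = 2.5e-08). Ngfr, which encodes the neurotrophin receptor p75, rose by 2.65 ± 0.13 and 3.00 ± 0.13 (SE) on the log2 scale. Shh, which encodes the Sonic hedgehog ligand, rose at 3 DPI by 1.68 ± 0.17 (SE) and had a log2 difference of 0.34 ± 0.17 at 7 DPI (SE, adjusted p = 0.16), and its injury effects on the 2 days differed by -1.34 ± 0.24 (SE, adjusted p = 0.009).

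Genes with the pattern most like each called gene were found over the 16 arrays by the root mean square difference of log2 values after each gene's own mean was subtracted. For Gdnf they were Rap2c, a small GTPase, Atp6v1b2, a subunit of the vacuolar proton pump, Tm4sf19, Plekho1 and Cpm, a carboxypeptidase, with differences of 0.21 to 0.23, where the median of all genes was 0.64. For Gfra1 they were Plekhg1, Rasl10a, the integrin subunit gene Itgb8, Pgap1, whose product remodels glycosyl-phosphatidylinositol anchors, and Tmem123, with differences of 0.15 to 0.20 (median of all genes 0.80). For Ret they were Sfrp5, which encodes a secreted Wnt modulator, the sulfotransferase gene Sult1a1, Ndrg2, Myoc and Frrs1l, with differences of 0.27 to 0.33 (median of all genes 0.83). The differences for Ret were larger than those for Gfra1. Such differences include the spread between replicate arrays, and group SDs were 0.16 to 0.46 for Ret and 0.04 to 0.19 for Gfra1.

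Markers of nerve cell types were read from the same arrays, where 5.81% of all genes were called at 3 DPI and 4.66% at 7 DPI. Sox10, which marks Schwann cells, had group means of 8.38 to 8.82, above the array medians of 6.27 to 6.40, and was not called on either day (log2 differences -0.19 and 0.29). The endothelial gene Pecam1 was not among the genes measured under a single symbol. Of 8 Schwann cell markers measured, Ngfr rose and Cdh2 and L1cam, both adhesion molecule genes, fell at 3 DPI, and Ngfr and the neuregulin receptor gene Erbb3 rose at 7 DPI. Their log2 differences ran from -1.06 to 2.65 at 3 DPI and from -0.59 to 3.00 at 7 DPI. Cdh2, L1cam and Erbb3 were named after their values were seen. The mean log2 value of the 8 per array ran from 9.01 to 9.51 in contralateral and 9.18 to 9.25 in injured nerve at 3 DPI, and from 8.97 to 9.13 and 9.37 to 9.70 at 7 DPI. All 8 measured markers of myelinating Schwann cells fell on both days, as Ret did. Their mean per array ran from 11.7 to 12.0 in contralateral and 9.16 to 9.63 in injured nerve at 3 DPI, and from 11.5 to 11.8 and 8.10 to 8.34 at 7 DPI. Other lists held falls too. Of 4 endothelial markers, 1 fell on each day. Of 5 perineurial markers, 1 fell on each day and 1 rose at 3 DPI. Of 4 smooth muscle and pericyte markers, 1 fell at 7 DPI. None of 5 endoneurial markers was called, with log2 differences of -0.56 to -0.18 at 3 DPI and -0.66 to -0.26 at 7 DPI. None of 5 mesenchymal markers was called. Of 10 macrophage markers, 9 rose at 3 DPI and 4 at 7 DPI. Their mean per array ran from 7.73 to 8.53 in contralateral and 9.55 to 9.77 in injured nerve at 3 DPI, and from 8.24 to 8.62 and 9.01 to 9.66 at 7 DPI. All 5 markers of dividing cells rose on both days, their mean per array running from 6.38 to 7.03 in contralateral and 9.51 to 10.1 in injured nerve at 3 DPI, and from 7.27 to 7.67 and 9.54 to 9.71 at 7 DPI. Of 8 neuron markers, 1 rose and 1 fell at 3 DPI and 1 fell at 7 DPI, while Tubb3, a neuronal tubulin gene, had log2 differences of 0.02 and -0.12. Their mean per array ran from 6.69 to 6.94 in contralateral and 6.26 to 7.30 in injured nerve at 3 DPI, and from 6.51 to 6.69 and 6.10 to 6.77 at 7 DPI. Of 5 neutrophil markers, 1 rose at 3 DPI, and of 5 mast cell markers, 1 rose on each day. The group means of the macrophage, dividing cell, neutrophil and mast cell lists were highest in injured nerve at 3 DPI, where Gdnf was highest. They were 9.67, 9.89, 5.79 and 7.41. That of the neuron list was 6.91 ± 0.45 there and 6.83 ± 0.11 in contralateral nerve at 3 DPI (SD, n = 4 each), within the spread. In the study's single-cell data of injured mouse nerve, pooled over days after injury, Schwann cells were the only cell type above its detection threshold for Gdnf. That threshold was a share of cells with the transcript, which is not the measure of these arrays. None of 3 measured skeletal muscle markers was called, but their mean was 9.85 on injured 7 DPI replicate 1 and 7.10 to 7.85 on the other 3 arrays of that group. That array had the lowest Gfra1 and Ret values of its group, and without it the 7 DPI log2 changes were 1.96 for Gfra1 and -1.58 for Ret. Of 5 adipocyte markers, 3 fell at 7 DPI, and contralateral 7 DPI replicates 1 and 2 stood highest in them. The mean of these markers per array ran from 6.71 to 7.96 in contralateral and 6.69 to 7.32 in injured nerve at 3 DPI, and from 7.52 to 8.86 and 6.96 to 7.89 at 7 DPI. Without both those arrays the 7 DPI log2 changes were 0.79 for Gdnf, 1.83 for Gfra1 and -1.83 for Ret. The part of these cell types in the changes of Gdnf, Gfra1 and Ret was not tested.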

How the data were processed

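RNA of 16 nerves was hybridized to Affymetrix Rat Gene 2.0 ST arrays, 1 channel each. The deposited values are log2 intensities that the authors made with the robust multi-array average (RMA, oligo package, version not stated), which corrects background, normalizes between arrays by quantiles and summarizes probe sets. RMA values of dim genes understate changes, and the files used here give no detection call. Of 36685 probe sets, 18511 had 1 gene symbol in the platform annotation, 575 several and 17599 none. Where several named the same gene, the brightest on average was used, which gave 18166 genes.

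From these values, 4 group means were fitted in 1 limma model (limma 3.58.1, R 4.3.3, 12 degrees of freedom from the arrays and 4.08 from the prior). Adjusted p is Benjamini-Hochberg over all 18166 genes for each comparison, and called means adjusted p under 0.05 and at least 2-fold, the limits that the methods state for the neuron arrays of the study. The script was tested on simulated data. The genes and lists were chosen with earlier results of these data known. All 9 family genes were described on every array. From the pathway lists, called genes were named, at most 4 a list and comparison, with Ncam1, Sort1, Sorl1, Jun and Ngfr whatever their change. Sdc3 was added after its values were seen. Cell type markers were given as lists, with Sox10, Tubb3 and the unmeasured Pecam1 by name. Ngfr was also named there, and Cdh2, L1cam and Erbb3 after their values were seen. For each called gene the 5 genes of most like pattern were given. Within-group correlations of arrays were 0.986 to 0.993, and no 2 arrays were identical. The labels do not say which nerves came from the same rat. Alternatives tried were no fold minimum, removal of the dimmest 30% of genes, cyclic loess, a fit of the compared groups alone, array weights, pooled contralateral arrays, a replicate block, another median and removal of each array. The alternative without the 2 arrays highest in adipocyte markers was chosen after seeing the data. The precision of each value is limited by 4 arrays a group.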

Additional observations from a re-analysis of the deposited data

Results flagged for a closer look

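Among 36 groups of 4 arrays (9 genes in 4 groups), 2 held an array far from the other 3, and chance gives about 1 in 20. For Gfra3 in injured nerve at 3 DPI, replicate 3 was at 5.775, while the other arrays were at 5.66 to 5.67, a gap of 0.908 of the range of the group. For Ret in contralateral nerve at 7 DPI, replicate 1 was at 7.963 and the others at 8.39 to 8.47, a gap of 0.84 of the range.

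The injury effect on Gfra1 differed between the days. It was larger at 7 DPI by 0.8658 on the log2 scale (limma adjusted p = 0.0017), and all 4 injured arrays at 7 DPI were above all 4 at 3 DPI.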

How the results depend on the processing

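Of 1526 values of single genes recomputed under alternatives, 1488 kept their direction and their side of the thresholds, 7 were no longer called, 22 became called and 9 changed sign. These counts include log2 differences that could not move, because the array left out was in neither compared group. Gfra1 at 7 DPI, for example, stayed at 1.864 without any 1 array of the 3 DPI groups. The share that stayed the same is thus not a measure of robustness. The sign changes were in values near 0. For Gfra4 at 3 DPI, the log2 difference was 0.018 with cyclic loess, 0.053 with array weights and -0.11 to 0.11 with each array left out. For Nrtn at 7 DPI, it was 0.041 with array weights and -0.10 to 0.067 with each array left out. The call of Ret at 3 DPI was also lost against the pooled contralateral arrays (-0.89), where Gfra1 was called (1.03). Ret between the injured nerves was called with cyclic loess (-1.01), so that the count of family genes called there was 1. Without the fold minimum, the family genes called were 5 at 3 DPI, 4 at 7 DPI, 1 for the difference between days and 3 between the injured nerves. All genes called were then 6084, 5833, 312, 730 and, between the contralateral nerves, 13, where they were 1055, 846, 70, 58 and 2 with it, and pathway genes were 22 and 19. The count between the contralateral nerves was 5 without the dimmest genes, which left out Gfra3, 0 with the compared groups alone, 8 with array weights and 0 to 16 with each array left out. With each array left out, 1 to 3 family genes were called at 3 DPI and 0 to 1 between the injured nerves. Against the median of genes with 1 symbol in place of all probe sets, the family genes above it were 4 and not 7 in injured nerve at 3 DPI, 3 and not 6 in contralateral nerve at 7 DPI, and 2 and not 7 in injured nerve at 7 DPI. Apart from the values given here, the cause of these shifts was not tested.

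The labels do not say whether injured and contralateral nerves of the same replicate number came from the same rat, and the data did not establish that these numbers pair the arrays. The correlations of deviations from the group means ran from -0.0814 to 0.223, and 5 of 8 contralateral arrays correlated best with the injured array of their own number among 4, which leaves pairing possible. With the replicate number as a block, 2 family genes were called on each day as without it, and the 1 count that moved was of all genes between the contralateral nerves, at 1.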
